A study of Mus musculus with 12 samples.

Results

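The enzymes that build galactolipids and other sphingolipids of myelin were followed through RNA sequencing of OPC and neuron fractions of the mouse cortex. The group holds 10 genes, listed by symbol for their biochemical role (Ugt8a, Gal3st1, Fa2h, Cers2, Cers4, Sptlc1, Sptlc2, Degs1, Sgms1 and Elovl1), out of 30165 genes in the OPC table and 17918 in the neuron table, and all 10 were detected well enough to be tested in both fractions. Libraries came from control (ctl) mice, labelled WT, and from double knockout (dKO) mice, in which NG2-CreERT2, a tamoxifen-inducible recombinase driven by the NG2 gene, deletes loxP-flanked exons of the calcium channel genes Cacna1c and Cacna1d in OPCs. Tamoxifen was given at 100 mg/kg on postnatal days 7 and 8, the age at isolation is not stated, and whether ctl mice carried the recombinase or the floxed alleles is not stated either. There were 3 libraries per group and cell fraction (12 in all), each from the pooled cells of 2 mice. OPCs were the cells bound by magnetic beads for O4, NG2 and CD140. Neurons were what stayed unbound once cells carrying O4, CD11b, CD31 or ACSA-2 had been pulled out. NG2 is also a gene of pericytes, and O4 marks oligodendrocytes beyond the precursor stage.

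Myelin is unusually rich in galactosylceramide and its sulfated form, sulfatide. Their synthesis starts in the endoplasmic reticulum, where serine palmitoyltransferase (Sptlc1 and Sptlc2) joins serine to a fatty acid, ceramide synthases (Cers2 and Cers4) add another fatty acid, and the desaturase Degs1 completes ceramide. Elovl1 lengthens the fatty acids that Cers2 uses, and Fa2h adds a hydroxyl group to them, which gives the hydroxylated galactolipids for which myelin is known. Ceramide then takes 1 of several fates. Ugt8a adds galactose, Gal3st1 adds sulfate to the galactose, and Sgms1 instead makes sphingomyelin, a lipid of all cell membranes. Oligodendrocytes use the galactose branch most, whereas the steps up to ceramide and the sphingomyelin branch are shared by all cells.

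Depth was similar in all libraries, from 14935963 to 19812274 counted reads in OPC libraries and from 15052901 to 16344585 estimated reads in neuron libraries. Of the targeted genes, Cacna1c had normalized counts of 373, 411 and 439 in ctl OPC replicates 1 to 3 and 252, 337 and 312 in dKO replicates 1 to 3, and Cacna1d had 251, 191 and 255 in ctl and 92.8, 153 and 232 in dKO libraries. The OPC groups did not overlap for Cacna1c, which was 26.3% lower in dKO, and overlapped for Cacna1d, where dKO replicate 3 lay inside the ctl range. In neuron libraries Cacna1c lay between 57.3 and 165 and Cacna1d between 10.7 and 54.9, with overlapping groups. Summed markers of mature oligodendrocytes (12 genes) made up 52830 to 90310 CPM (counts scaled to the library total) of the OPC libraries, whereas 8 markers of OPCs made up 210 to 626 CPM, all of them detected in each library. In the neuron libraries, 8 endothelial markers summed to 5722 to 14630 CPM and 10 neuron markers to 573 to 1359 CPM. Single libraries stood apart, some of them by the sex-linked genes Xist and Ddx3y. In OPCs, dKO replicate 2 had a normalized Xist count of 13595 and no Ddx3y count, against 2.93 to 20.2 for Xist and 2141 to 2502 for Ddx3y in the other libraries. The OPC groups were thus unbalanced in these genes, and the sex of the mice in each library is not given in the sources used here. In neurons, Ddx3y had 3147 in ctl replicate 1 and 2524 in dKO replicate 1, and between 0 and 14.2 elsewhere. Neuron dKO replicate 1 also had the highest sum of 3 choroid plexus markers (30860 CPM, against 4982 to 14670 in the other neuron libraries) and the lowest endothelial sum.

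The stretches just upstream of the annotated starts are shown for some of the 10 genes. These are the galactose-branch pair Ugt8a and Gal3st1, the serine palmitoyltransferase pair, and the 2 starts of Sgms1 compared further on. They were taken from RefSeq on GRCm38.p6, which held entries for 9 of the 10 genes, and are written 5′ to 3′ on the strand of the gene. Each ends at the base before the start, except that of Sptlc1, which was shortened to 214 bases to leave out an annotated exon. Capitals mark matches to the GC box (GGGCGG) and the CCAAT box (CCAAT) on either strand, some of which overlap each other.
Ugt8a, chr3:125938653-125938902, minus strand: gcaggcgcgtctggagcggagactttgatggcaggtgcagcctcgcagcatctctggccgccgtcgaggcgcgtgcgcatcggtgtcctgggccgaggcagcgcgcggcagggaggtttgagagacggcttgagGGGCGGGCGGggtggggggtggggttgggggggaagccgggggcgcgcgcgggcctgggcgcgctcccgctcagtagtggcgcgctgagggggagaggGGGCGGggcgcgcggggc
Gal3st1, chr11:3983386-3983635, plus strand: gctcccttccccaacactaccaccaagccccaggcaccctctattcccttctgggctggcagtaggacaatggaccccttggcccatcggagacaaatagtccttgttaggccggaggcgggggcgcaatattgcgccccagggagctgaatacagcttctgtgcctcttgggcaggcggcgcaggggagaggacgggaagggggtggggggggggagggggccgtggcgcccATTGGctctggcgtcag
Sptlc1, chr13:53377398-53377611, minus strand: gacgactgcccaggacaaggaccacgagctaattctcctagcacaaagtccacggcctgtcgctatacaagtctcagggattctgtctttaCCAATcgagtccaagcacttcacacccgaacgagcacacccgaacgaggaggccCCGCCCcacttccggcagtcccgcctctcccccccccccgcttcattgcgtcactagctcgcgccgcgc
Sptlc2, chr12:87388356-87388605, minus strand: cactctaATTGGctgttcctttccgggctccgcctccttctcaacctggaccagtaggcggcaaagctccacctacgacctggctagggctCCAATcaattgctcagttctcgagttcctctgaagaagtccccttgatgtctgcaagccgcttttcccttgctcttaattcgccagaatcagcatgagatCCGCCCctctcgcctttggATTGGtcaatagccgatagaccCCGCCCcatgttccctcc
Sgms1, first start, chr19:32388513-32388762, minus strand: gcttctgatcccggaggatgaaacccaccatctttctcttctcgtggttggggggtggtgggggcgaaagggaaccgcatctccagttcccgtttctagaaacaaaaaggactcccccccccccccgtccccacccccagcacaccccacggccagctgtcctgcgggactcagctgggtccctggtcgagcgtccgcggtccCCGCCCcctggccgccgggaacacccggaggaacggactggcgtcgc
Sgms1, inner start, chr19:32211014-32211263, minus strand: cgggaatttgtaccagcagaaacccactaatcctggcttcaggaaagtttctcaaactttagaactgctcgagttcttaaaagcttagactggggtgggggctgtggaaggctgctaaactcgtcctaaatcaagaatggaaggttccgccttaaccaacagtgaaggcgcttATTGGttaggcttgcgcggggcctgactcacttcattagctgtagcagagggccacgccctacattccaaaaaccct
Ugt8a had the most GC-rich stretch of these, at 76.8% G and C with 3 GC boxes and no CCAAT box. The stretch of Gal3st1 had 65.6%, no GC box and 1 CCAAT box. Sptlc1 had 1 match to each motif, and Sptlc2 had 2 GC boxes and 3 CCAAT boxes. Over all 32851 RefSeq promoters, the 250 bases before the start held a GC box in 32.7% and a CCAAT box in 33.8%, so neither motif is rare. A match is a description of the letters only.

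Levels per length came first. In OPC libraries, in FPKM (reads scaled to gene length and library size), Ugt8a and Fa2h of galactolipid synthesis were the highest and Sptlc2 and Cers4 of ceramide synthesis the lowest. Ugt8a (ENSMUSG00000032854, chromosome 3 from 125658920 to 125732268 as deposited) had a level of 213 ± 40.0 FPKM in ctl libraries (SD, n = 3), and Fa2h (ENSMUSG00000033579, chromosome 8 from 112071767 to 112120456) had 205 ± 42.6 FPKM, and their ranges overlapped. Cers2 followed with 135 ± 17.1 FPKM and Degs1 with 104 ± 13.7 FPKM, each apart from its neighbours in the order. Gal3st1 had a level of 48.2 ± 10.6 FPKM and Elovl1 one of 41.7 ± 7.80 FPKM, and these overlapped. The lowest levels were those of Sptlc1 (15.8 ± 0.995 FPKM), Sgms1 (13.9 ± 2.75 FPKM), Sptlc2 (9.60 ± 0.263 FPKM) and Cers4 (5.40 ± 1.32 FPKM), of which Sptlc1 and Sgms1 overlapped. This order depends on the deposited lengths, which were 12264 bases for Cers4 and 10546 for Sgms1, against 3556 for Sptlc1. By mean normalized count in ctl libraries, Sptlc2 (1371) and Cers4 (1167) stood above Sptlc1 (989). Sgms1 (2575) likewise stood above Elovl1 (1998) and Gal3st1 (1728). The deposited positions of the other genes were chromosome 3 from 95222102 to 95230910 for Cers2, chromosome 1 from 182103337 to 182110369 for Degs1, chromosome 11 from 3933636 to 3949326 for Gal3st1 and chromosome 4 from 118285290 to 118290150 for Elovl1. Sptlc1 was placed on chromosome 13 from 53486784 to 53531433, Sptlc2 on chromosome 12 from 87351832 to 87435129, Cers4 on chromosome 8 from 4543026 to 4581680 and Sgms1 on chromosome 19 from 32100127 to 32367114. These positions are not on the build of the printed stretches.

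In neuron libraries the order was another one. Sgms1 was highest, with a level of 827 ± 143 TPM (a share of all transcripts, summed here over those of the gene) in ctl libraries (SD, n = 3), and by mean normalized count it ranked 45 among the 14352 genes tested. Cers2 had 265 ± 28.5 TPM, Degs1 162 ± 25.3 TPM and Elovl1 111 ± 16.8 TPM. Sptlc1 (46.9 ± 1.48 TPM), Sptlc2 (42.4 ± 3.63 TPM) and Cers4 (41.5 ± 8.96 TPM) lay close together, the latter pair overlapping. The galactose branch stood last. Ugt8a had 29.2, 20.9 and 3.55 TPM in ctl replicates 1 to 3, Fa2h had 8.76, 5.06 and 0.92 TPM, and Gal3st1 had 5.64, 4.62 and 0.65 TPM, and the ctl ranges of Ugt8a and Fa2h, and of Fa2h and Gal3st1, overlapped. FPKM from genes and TPM from transcripts were made in different ways, so the fractions are set side by side here without a test.

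**Figure D1:**
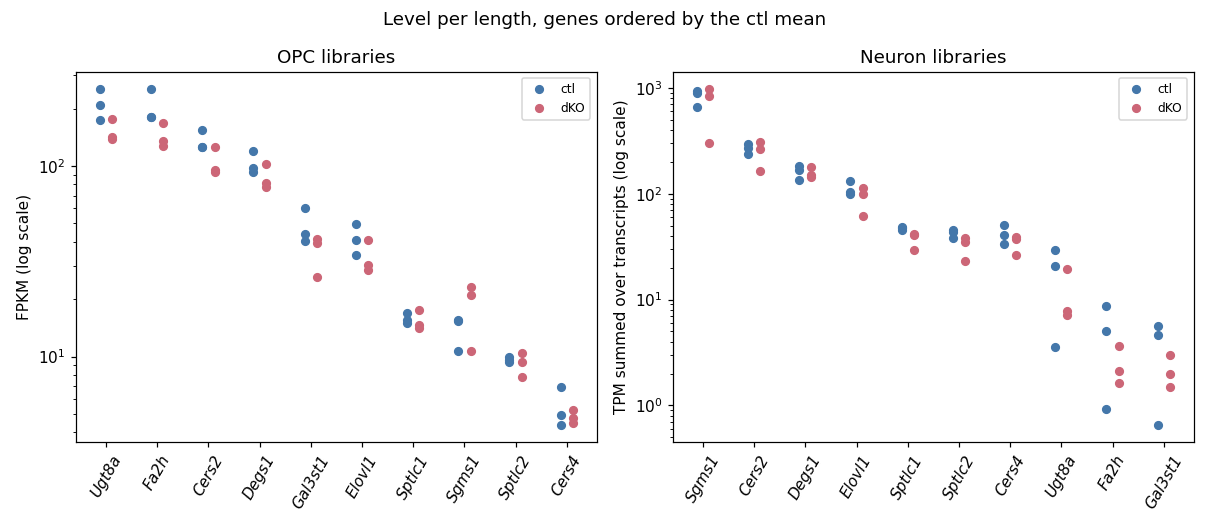
Level of each gene in every library on a log axis, in FPKM for OPC libraries (left) and in TPM summed over transcripts for neuron libraries (right), with 1 point per library and genes ordered by the ctl mean. Ugt8a leads in the OPC libraries at 213 FPKM in ctl, whereas Sgms1 leads in the neuron libraries at 827 TPM and Gal3st1 is lowest there.

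In OPCs, the dKO libraries were compared with the ctl libraries to see whether these enzymes differed with deletion of the channel genes. The galactolipid enzymes Ugt8a and Fa2h and the ceramide synthase Cers2 had lower counts in each dKO library than in each ctl library, by 28.3%, 30.3% and 23.0% of the ctl mean. Among all genes tested in OPCs, 9.55% had each dKO library below each ctl library. None of the 10 genes had an adjusted p under 0.05 (edgeR's quasi-likelihood test, adjusted over 17364 genes, of which 1 passed, or 0.00576%). At an unadjusted p under 0.05, 3 of the 10 were lower and none was higher, where 5.27% of all genes tested were lower and 6.27% higher at that level. By the sign of the fold change, 9 of 10 were lower in dKO, against 49.2% of all genes, with a median log2 fold change of -0.29 against 0.01 over all genes. With 1 library left out, 8 or 9 of 10 were lower. The median then ran from -0.44 (without dKO replicate 1) to -0.22 (without ctl replicate 2). All log2 fold changes that follow compare dKO with ctl and carry their standard error after the sign ±, unless a setting without a library is named. Fewer cells of a type and less RNA of these genes per cell cannot be told apart in such libraries.

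Among the enzymes of the first step, the OPC groups overlapped. Sptlc1 had normalized counts of 942, 1047 and 978 in ctl replicates 1 to 3 and 1081, 914 and 884 in dKO replicates 1 to 3, with the highest and the lowest value both in dKO libraries. Its log2 fold change was -0.04 ± 0.11. Sptlc2 had 1425, 1352 and 1337 in ctl and 1315, 1115 and 1495 in dKO libraries, where the dKO values lay on both sides of the ctl values. Its log2 fold change was -0.07 ± 0.12.

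Of the ceramide enzymes, Cers2, which makes ceramides with very long fatty acids, had normalized counts of 8199, 9951 and 8125 in ctl libraries and 8074, 6159 and 6006 in dKO libraries. The groups did not overlap, but dKO replicate 1 lay next to the ctl values, and dKO replicates 2 and 3 well below them. The log2 fold change was -0.38 ± 0.16 (unadjusted p = 0.0472, adjusted p = 0.432, edgeR). Cers4, a ceramide synthase for shorter chains than those of Cers2, had 1499, 932 and 1070 in ctl and 951, 1032 and 1138 in dKO libraries, with ctl replicate 1 alone above the rest and a log2 fold change of -0.17 ± 0.18. Degs1 had 4301, 5386 and 4475 in ctl and 4604, 3710 and 3552 in dKO libraries. The value of dKO replicate 1 lay among the ctl values, and the log2 fold change was -0.26 ± 0.15 (unadjusted p = 0.120, edgeR). It was -0.15 without ctl replicate 2 and -0.38 without dKO replicate 1 (unadjusted p = 0.0378).

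For the fatty acids, Fa2h had normalized counts of 9706, 13355 and 9526 in ctl and 8817, 7143 and 6753 in dKO OPC libraries. All dKO values were below all ctl values, and ctl replicate 2 was the highest. The log2 fold change was -0.52 ± 0.18 (unadjusted p = 0.0193, adjusted p = 0.353, edgeR). Elovl1 had 1657, 2366 and 1971 in ctl and 1951, 1374 and 1451 in dKO libraries. Here dKO replicate 1 lay inside the ctl range and the other dKO libraries below it, with a log2 fold change of -0.33 ± 0.18 (unadjusted p = 0.0970, edgeR). It was -0.19 without ctl replicate 2, -0.45 without ctl replicate 1 (unadjusted p = 0.0411) and -0.50 without dKO replicate 1 (unadjusted p = 0.0187).

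In the galactose branch, Ugt8a had normalized counts of 14069, 20121 and 16667 in ctl and 13950, 11417 and 11117 in dKO OPC libraries. The groups did not overlap, although the lowest ctl library and the highest dKO library were nearly level. The log2 fold change was -0.48 ± 0.18 (unadjusted p = 0.0269, adjusted p = 0.376, edgeR). Gal3st1, which makes sulfatide from the product of Ugt8a, had 1459, 2142 and 1584 in ctl and 1479, 1422 and 945 in dKO libraries. The groups overlapped by a single library, and the log2 fold change was -0.43 ± 0.20 (unadjusted p = 0.0648, edgeR). It was -0.25 without ctl replicate 2 and -0.26 without dKO replicate 3, and -0.54 both without ctl replicate 1 (unadjusted p = 0.0424) and without dKO replicate 1 (unadjusted p = 0.0468). Sgms1, of the sphingomyelin branch, was the 1 gene with a positive value in OPCs. It had 2908, 1965 and 2853 in ctl and 3866, 1981 and 4307 in dKO libraries, so that dKO replicates 1 and 3 were above all ctl libraries and dKO replicate 2 was level with the lowest, at a log2 fold change of 0.39 ± 0.28 (unadjusted p = 0.194, edgeR).

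**Figure D2:**
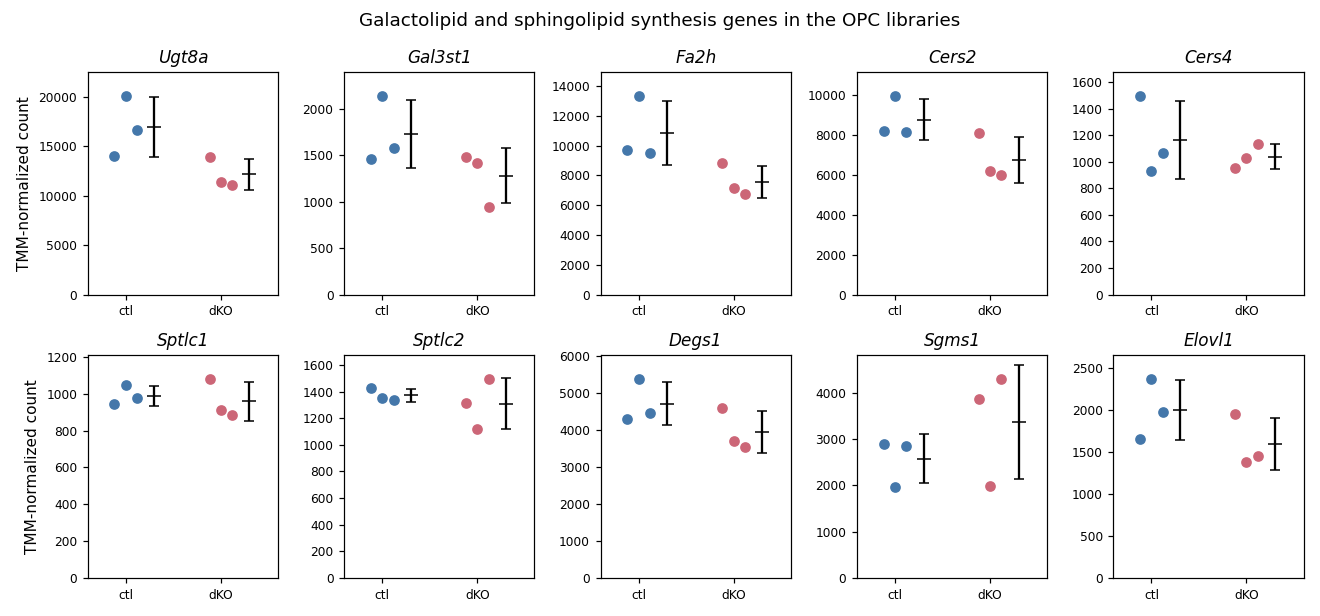
TMM-normalized counts (linear axes from 0) of the 10 genes in the OPC libraries, 1 point per library, with the mean and SD of the 3 libraries of each group in black. Every dKO point of Ugt8a, Fa2h and Cers2 is below every ctl point, while for Sgms1 a pair of dKO points lies above all ctl points and the other is level with the lowest ctl point.

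The count of 3 genes at an unadjusted p under 0.05 rests on single libraries. Leaving out ctl replicate 1, 2 or 3 gave 4, 0 and 1 genes, and leaving out dKO replicate 1, 2 or 3 gave 6, 1 and 0 genes. The single gene without dKO replicate 2, the library set apart by Xist, was Sgms1, which was higher at a log2 fold change of 0.67 (unadjusted p = 0.00617, edgeR), while Ugt8a then had -0.43 and Fa2h -0.48. Sgms1 had 0.23 without ctl replicate 2 (unadjusted p = 0.466) and 0.18 without dKO replicate 3 (unadjusted p = 0.565). The direction of Ugt8a, Fa2h and Cers2 was lower in each of these 6 fits, with log2 fold changes from -0.60 to -0.34 for Ugt8a, from -0.64 to -0.35 for Fa2h and from -0.53 to -0.28 for Cers2. Ugt8a lost an unadjusted p under 0.05 in 4 of the 6 fits, Fa2h in 3 and Cers2 in 5. The smallest p that exact permutation of 3 ctl and 3 dKO libraries allows for a single gene is 0.1.

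Within several lists of cell markers, most fold changes shared 1 sign in the OPC libraries, but no marker had an adjusted p under 0.05. Of the 12 mature oligodendrocyte markers, 10 were lower in dKO at a median log2 fold change of -0.42, and 3 of them (Mog, Opalin and Aspa) had an unadjusted p under 0.05. Mbp and Mobp, with log2 fold changes of 0.28 and 0.21, had the opposite sign. With 1 library left out, Mbp ranged from 0.08 to 0.52 and Mobp from -0.06 to 0.44, so that the sign of Mobp changed. The summed level of the list was 70900, 84410 and 76890 CPM in ctl and 90310, 74360 and 52830 CPM in dKO replicates 1 to 3, with overlapping groups. All 8 microglia markers were higher at an unadjusted p under 0.05, their sum being 201 to 239 CPM in ctl and 254 to 836 CPM in dKO libraries. Of the 8 astrocyte markers, 7 were higher at that level, with sums of 1028 to 1836 CPM in ctl and 1766 to 5295 CPM in dKO libraries. Of the 8 OPC markers, 7 were higher at a median log2 fold change of 0.58, and of the 10 neuron markers 9 were higher at a median of 0.41, with 0 and 1 of them at that level. None of these markers was at 0 in any library, and their part in the values of the 10 genes was not tested.

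The genes varied together from library to library to different degrees. Over the 6 OPC libraries, the correlation with Ugt8a on the log2 CPM scale was 0.964 for Fa2h, 0.949 for Elovl1, 0.949 for Degs1, 0.947 for Cers2 and 0.874 for Gal3st1 (Pearson's r, n = 6). For Sptlc1 it was 0.701 and for Sptlc2 0.141, and it was negative for Cers4 (-0.29) and Sgms1 (-0.42). With the summed mature oligodendrocyte markers it was 0.619. These points share libraries, depth and genotype, so r is a description. Of all genes tested, those most like Ugt8a by this measure were Zmat1, a zinc finger gene (r = 0.9998), Gsn, which encodes the actin-severing protein gelsolin (r = 0.997), and Rnls, which encodes renalase (r = 0.996). As many as 869 genes had an r at or above that of Gal3st1, so a close match is common among 6 libraries. Sgms1 instead followed the endothelial markers, with r = 0.963 to their summed level, and the microglia markers, with r = 0.839. The endothelial sum was 1513, 1045 and 1512 CPM in ctl and 1759, 833 and 2261 CPM in dKO replicates 1 to 3, low in the same libraries in which Sgms1 was low. All 8 endothelial markers had a positive log2 fold change, with a median of 0.22, and 1 of them (Emcn, at 0.83) had an unadjusted p under 0.05.

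In neurons, the smallest p-values were those of the enzymes of the first step. Sptlc1 and Sptlc2, the paired subunits of serine palmitoyltransferase, had lower counts in each dKO library than in each ctl library, by 20.5% and 24.0% of the ctl mean. Among all genes tested in neurons, 7.82% had each dKO library below each ctl library. Ugt8a, Gal3st1 and Fa2h had the most negative log2 fold changes, from -0.94 to -0.59, but also the widest spread. None of the 10 genes had an adjusted p under 0.05 (edgeR, adjusted over 14352 genes, of which 0 passed, or 0%, while 1292 had an unadjusted p under 0.05 and DESeq2 gave 88 adjusted calls, none of them among the 10). At an unadjusted p under 0.05, 2 of the 10 were lower and none was higher, where 4.04% of all genes were lower and 4.96% higher. All 10 had a negative fold change, against 48.9% of all genes, with a median log2 fold change of -0.31 against 0.01 over all genes. In the 4 libraries with few Ddx3y reads, 8 of 10 were lower and the median was -0.11, and without dKO replicate 1, 8 of 10 were lower at a median of -0.26.

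Sptlc1 had normalized counts of 958, 1043 and 1126 in ctl replicates 1 to 3 and 805, 830 and 850 in dKO replicates 1 to 3 of the neurons. The dKO libraries were close to each other and below all ctl libraries. The log2 fold change was -0.33 ± 0.13 (unadjusted p = 0.0321, adjusted p = 0.521, edgeR). Sptlc2 had 2555, 2328 and 3039 in ctl and 1783, 2203 and 2036 in dKO libraries. These groups did not overlap either, with dKO replicate 2 nearest to ctl replicate 2, at a log2 fold change of -0.40 ± 0.15 (unadjusted p = 0.0322, adjusted p = 0.521, edgeR). Within several lists of cell markers, most fold changes shared 1 sign in these libraries too, but no marker had an adjusted p under 0.05. All 8 markers of committed oligodendrocytes were lower, 3 of them at an unadjusted p under 0.05, with a median log2 fold change of -0.80. All 8 microglia markers were lower at a median of -0.71, none at that level, and their sums overlapped (248 to 1224 CPM in ctl and 220 to 688 CPM in dKO libraries). All 3 choroid plexus markers were higher at that level, with a median of 1.22, and 8 of 10 neuron markers were higher, with a median of 0.53 and 1 at that level. The choroid plexus sums overlapped (4982 to 9390 CPM in ctl and 8639 to 30860 CPM in dKO libraries). Those of committed oligodendrocyte markers did too (198 to 335 CPM in ctl and 157 to 202 CPM in dKO libraries). Endothelial sums did not overlap (12340 to 14630 CPM in ctl and 5722 to 11460 CPM in dKO libraries). Of the 8 astrocyte markers, 7 were lower, with a median of -0.40 and 2 (Gja1 and Gfap) at that level, and all 8 endothelial markers were lower, with a median of -0.38 and 2 at that level. The part of these cells in the values of Sptlc1 and Sptlc2 was not tested.

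The arrangement of Sptlc1 and Sptlc2, with each dKO library below each ctl library, held for 3 of the 10 genes in neurons, the third being Cers4, and for 7.82% of all genes tested. In OPCs it held for 3 of the 10 genes (Ugt8a, Fa2h and Cers2) and for 9.55% of all. The reverse, with each dKO library above each ctl library, held for none of the 10 in either fraction, and for 7.41% of all genes in OPCs and 7.50% in neurons.

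Cers4 had normalized counts of 1754, 1418 and 1285 in ctl and 1228, 1280 and 1280 in dKO neuron libraries. Although the groups did not overlap, ctl replicate 3 was nearly level with the dKO libraries, and the log2 fold change was -0.23 ± 0.15 (unadjusted p = 0.154, edgeR). It was -0.10 without ctl replicate 1 and -0.08 in the 4 libraries with few Ddx3y reads. Cers2 had 4963, 4738 and 4551 in ctl and 3620, 4429 and 5121 in dKO libraries, which lay on both sides of ctl, with a log2 fold change of -0.11 ± 0.16. Degs1 overlapped between groups, with 2625, 2510 and 2204 in ctl and 2677, 2111 and 2502 in dKO libraries and a log2 fold change of -0.01 ± 0.15, or -0.20 from its most abundant transcript alone (unadjusted p = 0.167, edgeR). Elovl1 had 1916, 1558 and 1659 in ctl and 1184, 1436 and 1642 in dKO libraries. Its dKO replicate 3 lay within the ctl range, and the log2 fold change was -0.27 ± 0.16 (unadjusted p = 0.133, edgeR). It was -0.18 without ctl replicate 1, -0.15 without dKO replicate 1 and -0.06 in the 4 libraries with few Ddx3y reads.

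The galactose branch varied far more among the neuron libraries of 1 group than between groups. Ugt8a had normalized counts of 970, 718 and 131 in ctl and 336, 234 and 641 in dKO libraries, a span of 7.42 times among the ctl libraries alone. Ctl replicate 3 was the lowest of all 6 libraries. The log2 fold change of -0.59 ± 0.63 was smaller than its error, and it was -1.07 without ctl replicate 3 (unadjusted p = 0.0278, edgeR), -1.09 without dKO replicate 3, -0.31 without dKO replicate 2 and -0.07 without ctl replicate 1. Fa2h had 180, 107 and 21.4 in ctl and 44.1, 42.6 and 73.7 in dKO libraries, with a log2 fold change of -0.94 ± 0.66, and Gal3st1 had 80.2, 72.0 and 10.7 in ctl and 26.4, 27.5 and 46.1 in dKO libraries, with -0.71 ± 0.69. Both had the same lowest library as Ugt8a, and without it they had -1.42 (unadjusted p = 0.0105, edgeR) and -1.19 (unadjusted p = 0.0339). Without ctl replicate 1 they had -0.27 (unadjusted p = 0.707) and -0.32 (unadjusted p = 0.701), and in the 4 libraries with few Ddx3y reads -0.15 and -0.18. Gal3st1 had -0.45 without ctl replicate 2.

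These 3 genes followed the mature oligodendrocyte markers of the neuron libraries. The summed level of the 12 markers was 4415, 2536 and 897 CPM in ctl and 1372, 1411 and 2180 CPM in dKO replicates 1 to 3, again lowest in ctl replicate 3. All 12 had a negative log2 fold change, with a median of -0.88, and 1 (Mal) had an unadjusted p under 0.05. The correlation of Ugt8a over the 6 libraries was 0.954 with the summed markers, 0.972 with Gal3st1 and 0.964 with Fa2h, and -0.44 with the summed neuron markers (Pearson's r of log2 values, n = 6, a description). The part of these markers in the values was not tested.

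**Figure D3:**
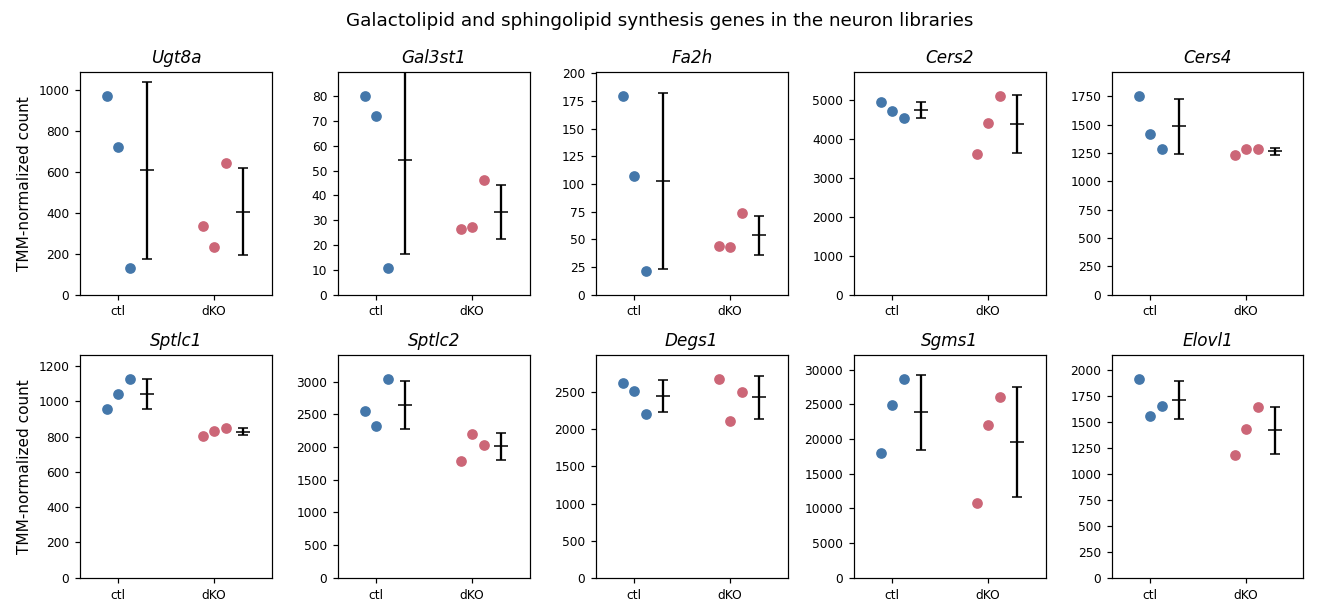
TMM-normalized counts (linear axes from 0) of the 10 genes in the neuron libraries, 1 point per library, with the mean and SD of the 3 libraries of each group in black. The dKO points of Sptlc1 and Sptlc2 lie below all ctl points, whereas the ctl points of Ugt8a span 131 to 970.

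Sgms1, the most abundant of the 10 in neurons, had normalized counts of 18044, 24929 and 28662 in ctl and 10795, 21968 and 26001 in dKO libraries. The groups overlapped, with dKO replicate 1 far below the others, at a log2 fold change of -0.29 ± 0.32, which was 0.01 without that library, -0.13 without ctl replicate 3, -0.45 without ctl replicate 1 and -0.54 without dKO replicate 3. The summed endothelial markers were 12510, 12340 and 14630 CPM in ctl and 5722, 11460 and 11330 CPM in dKO replicates 1 to 3, and were likewise lowest in dKO replicate 1. The correlation with Sgms1 was 0.904 (Pearson's r of log2 values, n = 6), against -0.62 for the summed neuron markers. All 8 endothelial markers had a negative log2 fold change, with a median of -0.38, and 2 (Cldn5 and Cdh5) had an unadjusted p under 0.05. Their part in the level of Sgms1 was not tested.

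**Figure D4:**
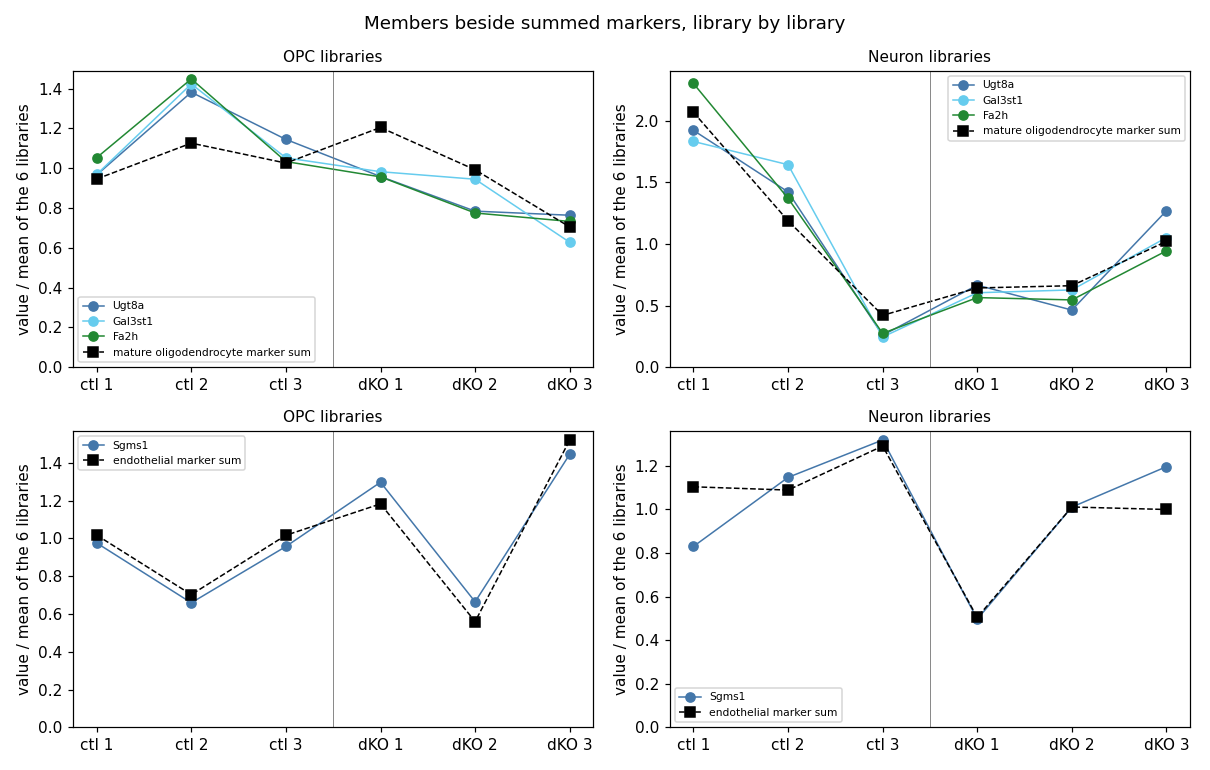
Normalized counts of Ugt8a, Gal3st1 and Fa2h with the summed level of 12 mature oligodendrocyte markers (top) and of Sgms1 with 8 summed endothelial markers (bottom), each divided by its mean over the 6 libraries of the fraction (linear axes from 0, with lines joining libraries of no order). In neurons ctl replicate 3 is lowest for the top lines, and both bottom lines are lowest there in dKO replicate 1.

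The neuron table gave estimated counts per transcript, which allowed the Sgms1 reads to be placed. A single RefSeq transcript out of 15, NM_001168526, held between 82.4% and 85.4% of the Sgms1 counts in each of the 6 libraries, at 559, 723 and 775 TPM in ctl and 251, 697 and 797 TPM in dKO replicates 1 to 3. The next one held 9.24% to 13.8%, and NM_144792, which begins at the first start, held at most 1.45%. In the GENCODE annotation of GRCm38, the dominant transcript runs on the minus strand of chromosome 19 from 32122728 to 32211013 with 6 exons. Its start lies 177499 bases downstream of that of NM_144792, inside an intron of the longer transcript. The stretches before these starts, printed above, differ in composition. That of the inner start had 49.6% G and C with 1 CCAAT box and no GC box, and that of the first start had 67.2% with 1 GC box and no CCAAT box. The share of the dominant transcript overlapped between groups (82.4% to 85.3% in ctl and 82.7% to 85.4% in dKO libraries). Fa2h and Sptlc2 were listed with 1 transcript each. The leading transcript held at least 84.8% of the counts of Cers2, 90.7% of those of Ugt8a, 93.6% of those of Elovl1 and 96.7% of those of Sptlc1 in each library. It held less in Cers4 (76.7% to 86.6%) and Degs1 (61.3% to 79.4%), and least in Gal3st1, whose leading transcript of 7 had 27.8% to 61.7% at low counts.

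The count of 2 genes in neurons again depended on single libraries. Leaving out ctl replicate 1, 2 or 3 gave 1, 1 and 3 genes, and leaving out dKO replicate 1, 2 or 3 gave 1, 1 and 0 genes. The 3 genes without ctl replicate 3 were Ugt8a, Gal3st1 and Fa2h, and neither Sptlc1 (unadjusted p = 0.112, edgeR) nor Sptlc2 (unadjusted p = 0.137) was among them. Sptlc1 and Sptlc2 each lost an unadjusted p under 0.05 in 4 of the 6 fits. Their log2 fold changes were negative in all 6, from -0.39 to -0.27 for Sptlc1 and from -0.48 to -0.28 for Sptlc2. With the 4 libraries of few Ddx3y reads alone, Sptlc1 had -0.37 (unadjusted p = 0.0237, edgeR) and Sptlc2 -0.34 (unadjusted p = 0.0527), and Ugt8a had 0.04.

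**Figure D5:**
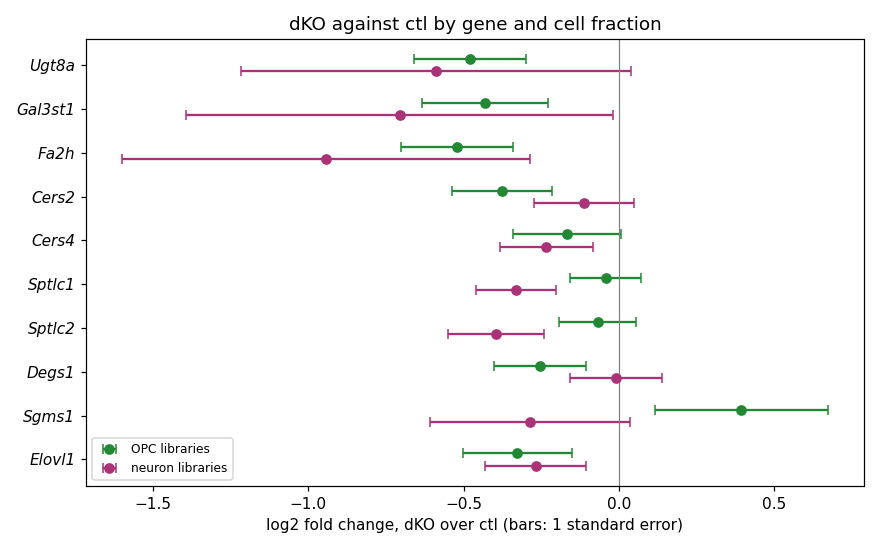
Log2 fold change of dKO over ctl for each gene in OPC libraries (green) and neuron libraries (purple), with bars of 1 standard error from edgeR. All points except Sgms1 in OPCs (0.39) lie below 0, with the widest bars for Ugt8a, Gal3st1 and Fa2h in neurons.

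Set side by side, the fractions differed in which steps had the smallest p. Sptlc1 and Sptlc2 had log2 fold changes of -0.04 and -0.07 in OPCs and of -0.33 and -0.40 in neurons. Cers2 instead had -0.38 in OPCs and -0.11 in neurons. Fa2h and Ugt8a, with the smallest p of these enzymes in OPCs, had negative values in both fractions. Fa2h had -0.52 ± 0.18 in OPCs and -0.94 ± 0.66 in neurons, and Ugt8a had -0.48 ± 0.18 and -0.59 ± 0.63. Without ctl replicate 1 the neuron values were -0.27 for Fa2h and -0.07 for Ugt8a. With errors this wide in neurons, the order by p cannot show that different steps changed. The difference between fractions was not tested, as their counts were made in different ways.

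The other genes of the pathway, in 7 lists drawn up by function, gave no common direction in OPCs. Of 80 genes, 77 were tested, with 33 lower and 44 higher and a median log2 fold change of 0.02. At an unadjusted p under 0.05, 3 were lower (Elovl6, Elovl7 and Acaca) and 6 were higher, and none had an adjusted p under 0.05. These counts are close to the background of 5.27% lower and 6.27% higher among all genes tested. The 3 lower genes belong to fatty acid synthesis and elongation, a list of 17 in which 9 were lower and 8 higher. Elovl6, which elongates saturated fatty acids, had normalized counts of 2712, 3320 and 2725 in ctl and 2381, 2178 and 1849 in dKO libraries, without overlap (log2 fold change -0.45, unadjusted p = 0.0103, edgeR). Elovl7 had a log2 fold change of -0.37 (unadjusted p = 0.0186), which missed that level when ctl replicate 1 (-0.29) or dKO replicate 2 (-0.33) was left out. Acaca, the carboxylase that starts fatty acid synthesis, was the fifth of the list by p and had -0.31 (unadjusted p = 0.0293), a level it missed with ctl replicate 2, ctl replicate 3, dKO replicate 1 or dKO replicate 2 left out.

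Elovl2, an elongase of polyunsaturated fatty acids, had normalized counts of 58.6, 78.6 and 81.5 in ctl and 112, 325 and 179 in dKO OPC libraries. The highest value was that of dKO replicate 2, as for the summed astrocyte markers, and the log2 fold change was 1.50 (unadjusted p = 0.00359, edgeR). Without that library it was 1.00 (unadjusted p = 0.00734). Acsl6, which activates fatty acids, had a log2 fold change of 0.87 (unadjusted p = 0.0215) and 0.41 without dKO replicate 2, and Papss2, which makes the sulfate donor for Gal3st1, had 1.01 (unadjusted p = 0.0160) and 0.67 without it. Both also had their highest count in dKO replicate 2, at 3980 and 345, and neither passed that level without it or without ctl replicate 1, nor Acsl6 without ctl replicate 2. Hexa, a lysosomal enzyme of ganglioside breakdown in the list of degradation genes, had normalized counts of 987, 1046 and 906 in ctl and 1373, 1082 and 1269 in dKO libraries. Its log2 fold change was 0.34 (unadjusted p = 0.0205), which ranged from 0.26 to 0.43 with a library left out and missed that level in 3 of 6 such fits. Galc and Arsa, which break down the products of Ugt8a and Gal3st1, were in this list and did not reach that level. S1pr1, a receptor for sphingosine 1-phosphate, had 1847, 1963 and 3092 in ctl and 3977, 3627 and 5376 in dKO libraries (log2 fold change 0.91, unadjusted p = 0.00352, edgeR). The part of astrocyte RNA in these values was not tested. In the remaining lists no gene reached an unadjusted p under 0.05 in OPCs. Their most abundant genes were Sptssa, a small subunit of serine palmitoyltransferase (log2 fold change 0.02), the ceramide synthase Cers5 (-0.02) and the glycolipid carrier Gltp (-0.28, or -0.13 with ctl replicate 2 left out and -0.16 with dKO replicate 3 left out).

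In neurons, 76 of the 80 pathway genes were tested, with 46 lower and 30 higher and a median log2 fold change of -0.08. At an unadjusted p under 0.05, 4 were lower and none was higher, beside 4.04% lower and 4.96% higher of all genes tested, and none had an adjusted p under 0.05. The direction of these calls depended on single libraries. There were 2 lower and 1 higher without ctl replicate 1, 2 lower and 4 higher without ctl replicate 3, 6 lower and 2 higher without dKO replicate 1, and 4 lower and 3 higher without dKO replicate 2. Of the 4, Degs2, which hydroxylates and desaturates ceramide, had normalized counts of 3408, 3069 and 2978 in ctl and 1817, 2314 and 2749 in dKO libraries (log2 fold change -0.46, unadjusted p = 0.0278, edgeR). Cert1, which carries ceramide to the Golgi for Sgms1, had 3913, 3890 and 4228 in ctl and 2110, 3362 and 3282 in dKO libraries (log2 fold change -0.46, unadjusted p = 0.0420, edgeR). In both, dKO replicate 1 was lowest, and without it Degs2 had -0.32 and Cert1 -0.27. The ceramidases Asah1 and Acer3 had log2 fold changes of -0.45 (unadjusted p = 0.0110, edgeR) and -0.41 (unadjusted p = 0.0428). For all 4, each dKO library was below each ctl library, as for 8 of the 76 pathway genes tested and 7.82% of all genes tested. Asah1 kept an unadjusted p under 0.05 in each of the 6 fits without a library, and Acer3 lost it in 4, being at -0.34 without ctl replicate 3. Degs2 lost it in 3 of them (ctl replicate 1, ctl replicate 2 or dKO replicate 2 left out) and Cert1 in 3 (any ctl library left out). In the 4 libraries with few Ddx3y reads Degs2 had -0.26 (unadjusted p = 0.0841), Cert1 -0.29 (unadjusted p = 0.0337) and Acer3 -0.34 (unadjusted p = 0.156). In the lists in which no gene passed, the most abundant were Sptssa (log2 fold change -0.20), Papss1 (-0.05), the fatty acid desaturase Scd2 (0.13) and S1pr1 (-0.29). Without dKO replicate 1, Sptssa had -0.12, Scd2 0.23 and S1pr1 -0.07. S1pr1 had -0.50 without dKO replicate 3. Scd2 had 0.23 without ctl replicate 1, 0.05 without ctl replicate 3 and 0.04 without dKO replicate 2, and in the 4 libraries with few Ddx3y reads it had 0.33 (unadjusted p = 0.0227, edgeR).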

How the data were processed

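Each cell fraction was analysed on its own. The OPC table deposited by the authors holds read counts for Ensembl genes (HISAT2 and featureCounts, per their methods). The authors also deposited FPKM values, used for levels only. The methods name GRCm38 and the submitters' processing notes mm39. The deposited starts of the 10 genes are not those of GRCm38, and no coordinate was converted. The neuron table, as deposited, has estimated counts and TPM values for RefSeq transcripts, by a program not given in the sources used here. Estimated counts were summed per gene and rounded, and 87.7% of the sums were within 0.02 of a whole number. Neuron genes without a symbol held 0.0441% of counts. The authors' own fold changes, p-values, adjusted p-values and group means were not used.

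Testing was limited to genes averaging 10 or more TMM-normalized counts, by the quasi-likelihood test of edgeR 4.0.16 in R 4.3.3. Genotype was its sole factor, and p-values were adjusted by Benjamini-Hochberg over all genes tested. The study used littermates from several breeding pairs, assigned to groups by genotype. Which litter each library came from is not given in the sources used here, so p-values measure the spread between libraries, whose coefficient of variation was 20.5% in OPCs and 27.7% in neurons. The precision of each value is limited by 3 libraries per group. Standard errors were obtained from the log2 fold change and the F statistic. On simulated data with a log2 fold change of 2, the OPC fit called 189 of 193 changed genes and the neuron fit 198 of 199. The alternatives were DESeq2 1.42.0, RLE normalization, no filter, a replicate block, each library left out, the most abundant neuron transcript alone and, chosen after seeing the data, the neuron libraries with few Ddx3y reads. The 10 genes and the gene lists were chosen with earlier results of these data known. Named pathway genes are those with an unadjusted p under 0.05 (up to 4 per list with the smallest p) or, where none passed, the gene of the list with the highest mean count. The 3 genes most like Ugt8a were named by Pearson's r, and Acaca, Galc, Arsa and single markers were named after their values were seen. The values of 1 pathway gene that meets this rule are not reported here.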

Additional observations from a re-analysis of the deposited data

Results flagged for a closer look

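Hexa, a lysosomal enzyme of ganglioside breakdown, was at a log2 fold change of 0.34 for OPCs and -0.26 for neurons. In OPCs the normalized counts were 987, 1046 and 906 in ctl and 1373, 1082 and 1269 in dKO libraries, each dKO library above each ctl library. In neurons they were 1783, 1496 and 1489 in ctl and 1195, 1436 and 1340 in dKO libraries, each dKO library below each ctl library. It was singled out because the dKO libraries of the fractions lay on opposite sides of their controls. The 8 microglia markers had the same signs, all higher in OPCs (median log2 fold change 1.37, all 8 at an unadjusted p under 0.05 by edgeR) and all lower in neurons (median -0.71, none at that level). Their part in the values of Hexa was not tested, nor was the difference between the fractions.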

How the results depend on the processing

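The count of the 10 genes with an adjusted p under 0.05 was 0 in both fractions under each alternative run, DESeq2 included. The count with an unadjusted p under 0.05 was 3 in OPCs with all libraries and 0 to 6 with 1 left out. It was 2 with RLE normalization, as Cers2 then had an unadjusted p of 0.0501, and 4 without the filter, as Gal3st1 then had 0.0379. In neurons it was 2 with all libraries, 0 to 3 with 1 left out, and 1 in the libraries with few Ddx3y reads. For the other pathway genes it was 7 to 9 with an OPC library left out and 3 to 8 with a neuron library left out (9 and 4 with all libraries). With the replicate number as a block, 8 other pathway genes reached that level in neurons, 5 of them lower and 3 higher, Acer3 not among them. Of the 10 genes, 2 did in neurons (Sptlc1 and Sptlc2, as without the block). In OPCs 2 did, namely Fa2h and Gal3st1. The unadjusted p by edgeR was then 0.0297 for Fa2h, 0.0248 for Gal3st1, 0.0617 for Ugt8a and 0.07 for Cers2. The replicate numbers name libraries and do not pair them. The correlations of same-numbered libraries were -0.13, 0.18 and 0.15 in OPCs and 0.17, -0.05 and -0.06 in neurons, and not every library correlated best with its own number.

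Some signs changed. When 1 library was left out, log2 fold changes in OPCs ranged from -0.31 to 0.0544 for Cers4, from -0.0852 to 0.0345 for Cers5, from -0.14 to 0.0027 for Sptlc1, from -0.18 to 0.0353 for Sptlc2 and from -0.0475 to 0.10 for Sptssa. In neurons they ranged from -0.24 to 0.0075 for Cers2, from -0.085 to 0.0834 for Degs1, from -0.0942 to 0.0078 for Papss1 and from -0.54 to 0.0066 for Sgms1. Without the filter Cers5 had 0.0050 in OPCs, and with few Ddx3y reads Cers2 had 0.0388 and Ugt8a 0.0411 in neurons. The cause was not tested.

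Over all genes, adjusted calls in OPCs numbered 1 by edgeR, 293 by DESeq2, 27 with the block and 199 without dKO replicate 2, and in neurons 0 by edgeR and 88 by DESeq2. Taking the most abundant transcript alone changed no sign of the 10 genes in neurons, but moved Degs1 from -0.01 to -0.20, Gal3st1 from -0.71 to -1.16 and Cers2 from -0.11 to -0.19. The low counts of Gal3st1 and Fa2h in neurons limit those values, and coordinates of the OPC table cannot be tied to a build here.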
